A study of Mus musculus with 24 samples.

Results

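The genes described here are 10 genes that cells transcribe more when oxygen is low: *Car9*, *Ndrg1*, *Vegfa*, *Egln1*, *Egln3*, *Bnip3*, *Adm*, *Kdm3a*, *P4ha1* and *Ankrd37*. They were picked by symbol from the 49315 genes of the count table, and each symbol matched 1 row. The genes were chosen with their levels in all 8 treatment groups known, so those levels, and every difference between groups, are given as a description and without a *P* value. All 10 passed the filter on low counts and were among the 16070 genes tested.

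RNA was sequenced from MS03 cells, an immortalized mouse Schwann cell line in which a floxed *Nf2* gene was deleted by infection with Cre. All 8 groups carry this *Nf2* loss, and all are 1 line, so no cell with intact *Nf2* and no second line is in the comparison. Cells received dimethyl sulfoxide (DMSO, the solvent) or 1 of 7 compounds directed at focal adhesion kinase (FAK, encoded by *Ptk2*) for 24 hours. The kinase inhibitors, all at 1 μM, were defactinib, VS-4718, GSK2256098 and IN10018 (also called ifebemtinib). Proteolysis-targeting chimeras (PROTACs) recruit a ubiquitin ligase to the protein, and here these were PROTAC FAK degrader 1 at 1 μM and, at 0.1 μM, GSK215 and BSJ-04-0146. Each group had 3 biological replicates, giving 24 libraries. Cells grew in a humidified incubator with 5% CO2, and the labels name no low-oxygen treatment, so "hypoxia-induced" names the genes here and not a condition of the culture.

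In well-oxygenated cells, the prolyl hydroxylases encoded by *Egln1*, *Egln2* and *Egln3* modify the α subunits of hypoxia-inducible factor (HIF). The modified subunit is bound by the VHL ubiquitin ligase and destroyed. When hydroxylation slows, HIF-α accumulates, pairs with ARNT and binds hypoxia response elements near its target genes. *Egln1* and *Egln3* are themselves such targets and so form a feedback loop. The other members act on pH (*Car9*), vessels (*Vegfa*, *Adm*), mitochondria (*Bnip3*), chromatin (*Kdm3a*) and collagen (*P4ha1*). *Ndrg1* and *Ankrd37* are widely used as markers of the response.

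The core of a hypoxia response element reads ACGTG or, in its commonest variant, GCGTG. Promoter windows of 250 bases before to 50 bases after the start site were taken from RefSeq (GRCm38.p6), which had an entry for 9 of the 10 genes and none for *Ndrg1*. Searched on both strands, the most upstream window held 1 of these 2 words in 8 of the 9 genes, and 43.8% of the most upstream windows of 27025 genes held one too. With the longer words ACGTGC or GCGTGC, 6 of the 9 windows matched, beside 16.4% of all. Each of these words contains CG, the members' most upstream windows were 54.7% to 86% G or C, and the background was not matched for this. A match is only a run of letters, and binding was not measured. *Vegfa* had no match in its most upstream window. A second *Vegfa* window, at chr17:46025114-46025413, held 1 match to each word. That window lies inside the gene span (chr17:46016993-46032369), and its end matched no GENCODE transcript of the gene. Its matches therefore do not stand in for a match at the most upstream start.

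The 250 bases before the RefSeq start of 4 genes are shown because their RNA behaved differently. *Ankrd37* and *Bnip3* were among the genes that followed the shared pattern most closely, *Adm* departed from it with 1 compound, and *Egln3* varied within a narrow span. The *Ankrd37* window lies inside the gene span that GENCODE gives, which begins further upstream, and 17 of its bases and 13 of the *Bnip3* bases are GENCODE exon. Capitals mark the searched words on either strand, so that CACGT and CACGC are ACGTG and GCGTG read from the other strand. All are written 5′ to 3′ along the transcribed strand, namely *Ankrd37* from chr8:45999851-46000100 (minus), *Bnip3* from chr7:138909507-138909756 (minus), *Egln3* from chr12:54203875-54204124 (minus) and *Adm* from chr7:110627407-110627656 (plus).
Ankrd37: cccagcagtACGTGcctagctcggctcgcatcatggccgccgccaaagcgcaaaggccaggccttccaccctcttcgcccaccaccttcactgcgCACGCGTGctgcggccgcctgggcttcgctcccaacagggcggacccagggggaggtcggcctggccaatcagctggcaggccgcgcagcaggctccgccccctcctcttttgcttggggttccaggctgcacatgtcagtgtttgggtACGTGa
Bnip3: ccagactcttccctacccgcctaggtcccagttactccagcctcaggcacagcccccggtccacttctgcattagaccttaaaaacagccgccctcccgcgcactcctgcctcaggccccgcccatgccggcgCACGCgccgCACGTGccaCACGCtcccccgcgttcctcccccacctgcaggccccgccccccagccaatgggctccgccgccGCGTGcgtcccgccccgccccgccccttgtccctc
Egln3: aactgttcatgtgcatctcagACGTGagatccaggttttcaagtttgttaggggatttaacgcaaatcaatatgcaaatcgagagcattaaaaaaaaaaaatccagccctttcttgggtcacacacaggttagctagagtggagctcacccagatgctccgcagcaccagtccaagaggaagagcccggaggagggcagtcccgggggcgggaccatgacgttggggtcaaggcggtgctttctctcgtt
Adm: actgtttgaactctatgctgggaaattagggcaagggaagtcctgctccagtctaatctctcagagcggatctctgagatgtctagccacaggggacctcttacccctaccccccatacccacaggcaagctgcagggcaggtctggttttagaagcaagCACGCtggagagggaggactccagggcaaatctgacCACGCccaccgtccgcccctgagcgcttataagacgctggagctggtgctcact

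The *Ankrd37* window held 4 matches and the *Bnip3* window 5, where the palindrome CACGTG counts once on each strand. The *Adm* window held 2 matches, both to GCGTG. The *Egln3* window held a single ACGTG, 229 bases before the start. Of the genes not shown, *Car9* and *Kdm3a* also had 1 match each, *Egln1* had 2 and *P4ha1* had 3. *Vegfa* had 0, although it followed the other members as closely as *Bnip3* did (r = 0.99 for each, described below). Whether the number of matches goes with the RNA levels was not tested.

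Total counts ranged from 14472462 to 27449516 per library. They were 22952048 to 27449516 with DMSO, 21654444 to 26550878 with the kinase inhibitors and 14472462 to 21588406 with the PROTACs. The member counts were well above 0 throughout, from 62 for *Ankrd37* in its lowest library to 8611 for *Ndrg1* in its highest. Levels are given as CPM, each count divided by its library's total and scaled by the trimmed mean of M values (TMM), and because they are relative to the other RNA of a library, a fall in cells that express a gene and a fall in RNA per cell cannot be told apart. The spread between replicates exceeded Poisson sampling in each of the 24 within-group pairs (chi-square divided by its degrees of freedom, 1.8 to 9.44). Of the Schwann cell markers, *Sox10* stood at 20.1 ± 0.317, *Pmp22* at 12.6 ± 1.18 and *Ngfr* at 10.4 ± 0.751 CPM with DMSO (SD, n = 3), whereas *S100b* and *Gfap* were near 0 (0.134 and 0.171 CPM). The leukocyte markers *Ptprc* and *Adgre1*, the fibroblast markers *Dcn* and *Lum* and the endothelial marker *Kdr* were at 0 with DMSO. Other markers of these cells were detected, namely *Col1a1* at 392 and *Pdgfra* at 12.4 CPM for fibroblasts, *Cd68* at 3.35 and *Csf1r* at 0.444 CPM for macrophages, and *Pecam1* at 0.402 and *Cdh5* at 0.0251 CPM for endothelium. *Ptk2* RNA, which these compounds do not target directly, was 95.3 ± 2.4 CPM with DMSO and 77.9 to 97.7 CPM in the compound groups. Its log2 fold changes against DMSO were -0.29 with GSK215, -0.26 with BSJ-04-0146, -0.18 with VS-4718, -0.14 with defactinib and -0.13 with GSK2256098. With IN10018 and PROTAC FAK degrader 1 they were -0.07 and 0.03.

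Most of the 10 genes rose and fell together across the 8 groups. By edgeR's quasi-likelihood test at an adjusted *P* threshold of 0.05 over all genes (genes past it are said to be called), IN10018 gave higher levels than DMSO of 10 members and lower levels of 0, beside 6.44% of all 16070 genes higher and 6.85% lower. With PROTAC FAK degrader 1, 9 were higher and *Adm* was lower, beside 34.1% and 32.7% of all genes. With VS-4718, 0 were higher and 10 lower (20.4% and 18.9% of all genes), with GSK215, *Kdm3a* was higher and 9 were lower (27.4% and 27.2%), and with BSJ-04-0146, 0 were higher and 8 lower (27.7% and 26.9%), the exceptions being *Egln3* and *Kdm3a*. GSK2256098 gave 0 higher and 8 lower (6.36% and 6.09%), and defactinib 0 higher and 4 lower (11.4% and 11.0%), namely *Ndrg1*, *Bnip3*, *Egln3* and *Egln1*. Because the members were chosen on these same comparisons, nothing is read from these counts. Compared per kilobase of exon with DMSO, levels (RPKM, mean ± SD, n = 3) ran from 58.9 ± 0.724 for *P4ha1*, 44.0 ± 2.47 for *Bnip3*, 31.7 ± 0.491 for *Egln1* and 27.3 ± 0.646 for *Vegfa* down to 9.97 ± 0.0909 for *Ndrg1* and 7.94 ± 0.79 for *Ankrd37*.

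**Figure D1:**
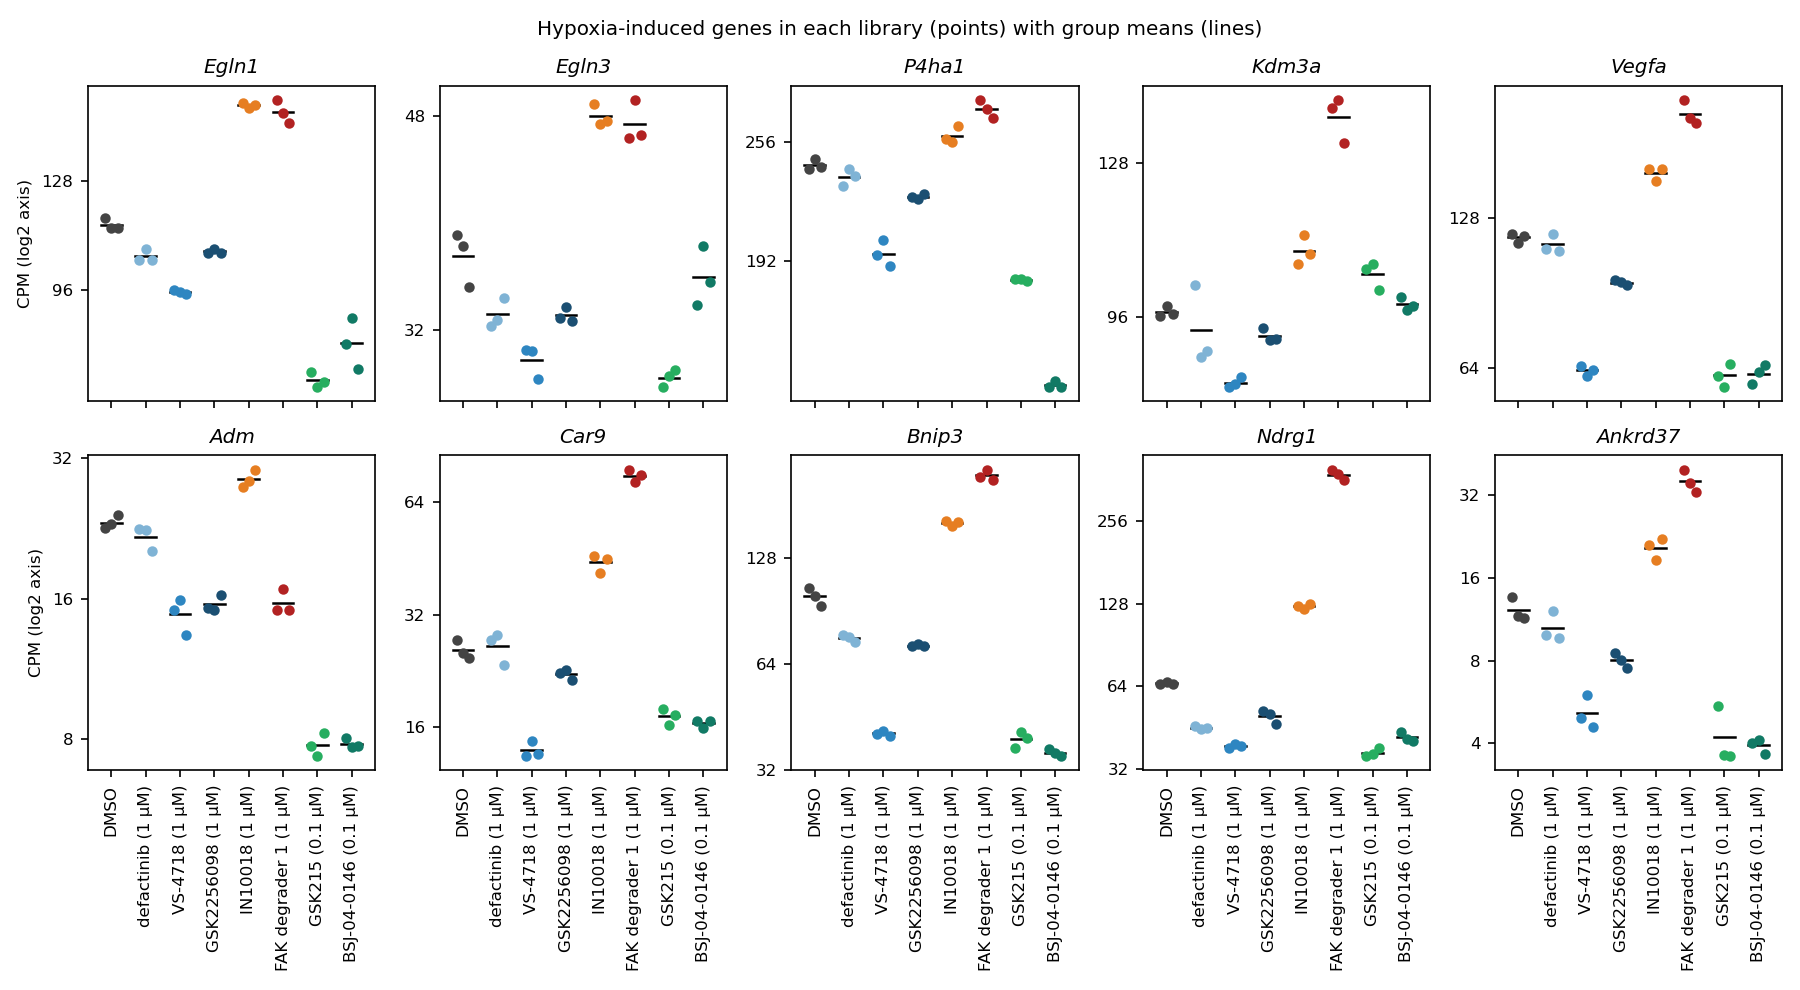
CPM of the 10 genes (log2 axis, a separate range for each gene) in the 8 groups. Points are the 3 libraries of a group and lines are group means. The IN10018 and FAK degrader 1 points lie above DMSO in each panel except *Adm*, where FAK degrader 1 lies below, at 15.1 to 16.8 CPM.

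*Egln1* (ENSMUSG00000031987, chr8:124908587-124949324) encodes PHD2, the main oxygen sensor of the pathway. Its level was 116, 113 and 113 CPM with DMSO, 157, 155 and 156 CPM with IN10018 and 158, 153 and 149 CPM with PROTAC FAK degrader 1. Both of these groups lay above DMSO and overlapped each other. It was 77.5, 74.6 and 75.5 CPM with GSK215 and 83.5, 89.4 and 78.1 CPM with BSJ-04-0146, the lowest groups. The log2 fold changes against DMSO were 0.45 ± 0.034 (SE) with IN10018, 0.43 ± 0.034 with PROTAC FAK degrader 1, -0.59 ± 0.037 with GSK215 and -0.45 ± 0.037 with BSJ-04-0146. Defactinib (104 to 107 CPM), GSK2256098 (106 to 107 CPM) and VS-4718 (95.5 ± 0.483 CPM) all lay below DMSO, with log2 fold changes of -0.12, -0.10 and -0.26. The defactinib call was lost without DMSO replicate 1 (-0.11), and GSK2256098, not called, was called by DESeq2 or with only its own and the DMSO libraries (-0.10 each).

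*Egln3* (ENSMUSG00000035105, chr12:54178981-54203860) encodes PHD3, a hydroxylase that is itself strongly induced by hypoxia in many cells. Its level was 38.3, 37.5 and 34.7 CPM with DMSO, 49.2, 47.3 and 47.6 CPM with IN10018 and 46.1, 49.5 and 46.3 CPM with PROTAC FAK degrader 1. As with *Egln1*, these groups were above DMSO and overlapped each other. With GSK215 it was 28.7, 29.3 and 29.6 CPM, below DMSO, but with BSJ-04-0146 it was 33.5, 37.5 and 35.0 CPM, within the range of the DMSO libraries or just under it. The log2 fold change was -0.33 ± 0.051 with GSK215 and -0.06 ± 0.05 with BSJ-04-0146 (95% interval -0.16 to 0.04). The calls with defactinib and GSK2256098 (-0.16 each) were lost on leaving out DMSO replicate 1 or 2, defactinib replicate 1, or GSK2256098 replicate 1 or 3 (-0.16 to -0.14). The span between the highest and lowest group means was 1.65-fold, against 2.05-fold for *Egln1*.

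*P4ha1* (ENSMUSG00000019916, chr10:59323296-59373304) encodes the catalytic subunit of collagen prolyl 4-hydroxylase, which hydroxylates procollagen chains. Its level was 240, 246 and 241 CPM with DMSO, 258, 256 and 266 CPM with IN10018 and 283, 277 and 271 CPM with PROTAC FAK degrader 1. The 3 groups did not overlap, although the differences from DMSO were small, at 0.10 ± 0.029 and 0.19 ± 0.029 on the log2 scale. The IN10018 call was lost without the filter (0.10), DMSO replicate 1 or 3 (0.09 each) or IN10018 replicate 3 (0.08). It was 184, 184 and 183 CPM with GSK215 and 142, 144 and 142 CPM with BSJ-04-0146. *P4ha1* thus fell further with BSJ-04-0146 (-0.77 ± 0.03) than with GSK215 (-0.40 ± 0.03), and no other member was called lower with BSJ-04-0146 than with GSK215.

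*Kdm3a* (ENSMUSG00000053470, chr6:71588972-71632990) encodes a histone H3 lysine 9 demethylase. Its level was 96.3, 98.1 and 96.5 CPM with DMSO, 106, 112 and 108 CPM with IN10018 and 142, 144 and 133 CPM with PROTAC FAK degrader 1. These rises had log2 fold changes of 0.16 ± 0.039 and 0.52 ± 0.038. With GSK215 it was 105, 106 and 101 CPM, above all 3 DMSO libraries, and with BSJ-04-0146 it was 99.6, 97.3 and 98.1 CPM, overlapping them. The log2 fold change with GSK215 was 0.10 ± 0.04, and this small difference was not called by DESeq2 (0.09), without the filter (0.08), or without DMSO replicate 1 or 3 (0.09 each) or GSK215 replicate 1 or 2 (0.09 and 0.08). Scaled by library totals alone, BSJ-04-0146 was called higher too (0.13). VS-4718 was the only compound called lower, at 84.3, 84.7 and 85.8 CPM, although defactinib (89.1 to 102 CPM) was also called without its replicate 1 (-0.12). *Kdm3a* had the narrowest span of the 10 genes, 1.64-fold.

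*Vegfa* (ENSMUSG00000023951, chr17:46016993-46032369) encodes the growth factor that drives vessel formation. Its level was 119, 114 and 118 CPM with DMSO, 160, 152 and 160 CPM with IN10018 and 220, 203 and 198 CPM with PROTAC FAK degrader 1. It fell to 64.6, 61.9 and 63.6 CPM with VS-4718, 61.8, 58.8 and 65.4 CPM with GSK215 and 59.6, 62.9 and 64.9 CPM with BSJ-04-0146. These 3 lowest groups overlapped one another, at 53.1% to 54.3% of DMSO. Defactinib (110 to 119 CPM) overlapped DMSO, and GSK2256098 (93.8 to 96.1 CPM) lay below it. The log2 fold changes were 0.43 ± 0.039 with IN10018 and 0.83 ± 0.039 with PROTAC FAK degrader 1.

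*Adm* (ENSMUSG00000030790, chr7:110627661-110629820) encodes the vasodilator peptide adrenomedullin. Its level was 22.6, 23.1 and 24.1 CPM with DMSO and 27.7, 28.6 and 30.2 CPM with IN10018, its highest group. With PROTAC FAK degrader 1, however, it was 15.1, 16.8 and 15.1 CPM, below every DMSO library. This gave a log2 fold change of -0.57 ± 0.067, while the median of the other 9 genes with the same compound was 0.83. GSK2256098 (15.3, 15.1 and 16.3 CPM) and VS-4718 (15.1, 15.9 and 13.4 CPM) gave levels that overlapped those of PROTAC FAK degrader 1. The lowest levels were 7.75, 7.37 and 8.24 CPM with GSK215 and 8.07, 7.70 and 7.74 CPM with BSJ-04-0146. Their log2 fold changes of -1.58 ± 0.078 and -1.57 ± 0.079 were among the largest falls of any member.

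*Car9* (ENSMUSG00000028463, chr4:43506966-43513729) encodes carbonic anhydrase IX, a membrane enzyme that acidifies the space outside the cell. Its level was 27.4, 25.2 and 24.5 CPM with DMSO, 45.9, 41.4 and 45.0 CPM with IN10018 and 78.1, 72.3 and 75.5 CPM with PROTAC FAK degrader 1. *Car9* was thus 1.72 and 2.93 times its DMSO level in these groups, with no overlap. Its lowest level was with VS-4718, at 13.4, 14.7 and 13.6 CPM, below GSK215 (16.2 to 17.9 CPM) and BSJ-04-0146 (15.9 to 16.6 CPM). *Car9* was the only member with its lowest group mean at VS-4718 apart from *Kdm3a*. Defactinib (27.3, 28.3 and 23.5 CPM) overlapped DMSO. GSK2256098 (21.4 to 22.7 CPM) lay below it by -0.21, a call lost without DMSO replicate 1 (-0.17) or GSK2256098 replicate 3 (-0.20).

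*Bnip3* (ENSMUSG00000078566, chr7:138890836-138909519) encodes a mitochondrial receptor for autophagy. Its level was 105, 100 and 93.9 CPM with DMSO, 164, 158 and 162 CPM with IN10018 and 218, 229 and 214 CPM with PROTAC FAK degrader 1. The log2 fold changes were 0.69 ± 0.037 and 1.14 ± 0.036. It was 40.5, 41.3 and 40.0 CPM with VS-4718, 37.0, 40.9 and 39.4 CPM with GSK215 and 36.7, 35.7 and 35.0 CPM with BSJ-04-0146, or 35.9% to 40.7% of DMSO. Defactinib (77.3, 76.3 and 73.8 CPM) and GSK2256098 (71.8, 72.8 and 72.1 CPM) lay between these groups and DMSO. *Bnip3* and *Ndrg1* were the members with the largest falls with defactinib, of -0.40 ± 0.039 and -0.54 ± 0.042.

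*Ndrg1* (ENSMUSG00000005125, chr15:66929318-66969640) encodes a stress-responsive cytoplasmic protein with roles in differentiation and, in Schwann cells, in the upkeep of myelinated nerve. Its level was 65.4, 66.5 and 65.4 CPM with DMSO, 126, 123 and 128 CPM with IN10018 and 396, 381 and 363 CPM with PROTAC FAK degrader 1. At 5.78 times its DMSO level, it had the largest rise of the 10 genes with PROTAC FAK degrader 1, with a log2 fold change of 2.53 ± 0.037. The 5 other compound groups all lay below DMSO, from 35.6, 36.1 and 38.2 CPM with GSK215 to 52.0, 50.7 and 46.6 CPM with GSK2256098. Its span over the 8 groups was 10.4-fold, the widest of the 10.

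*Ankrd37* (ENSMUSG00000050914, chr8:45996902-46005707) encodes a small ankyrin repeat protein. Its level was 13.6, 11.6 and 11.4 CPM with DMSO, 21.0, 18.5 and 22.2 CPM with IN10018 and 39.6, 35.5 and 32.9 CPM with PROTAC FAK degrader 1. It was 4.95, 5.98 and 4.60 CPM with VS-4718, 5.45, 3.63 and 3.60 CPM with GSK215 and 4.01, 4.12 and 3.66 CPM with BSJ-04-0146. These 3 groups were the lowest, GSK215 overlapping both of the others, and the span was 9.16-fold. Defactinib (9.64 to 12.1 CPM) overlapped DMSO at -0.21 and was called only without its replicate 2 (-0.32). *Ankrd37* shares 57 exon bases with *Ufsp2* and 349 with *Lrp2bp*, both on the opposite strand, with 535 to 1304 and 7 to 39 counts per library. The strand setting of the counting is not given in the sources used here, so reads from these bases cannot be told apart. *Car9* shares 214 exon bases with the antisense gene *Gm12454*, which had 10 to 80 counts.

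**Figure D2:**
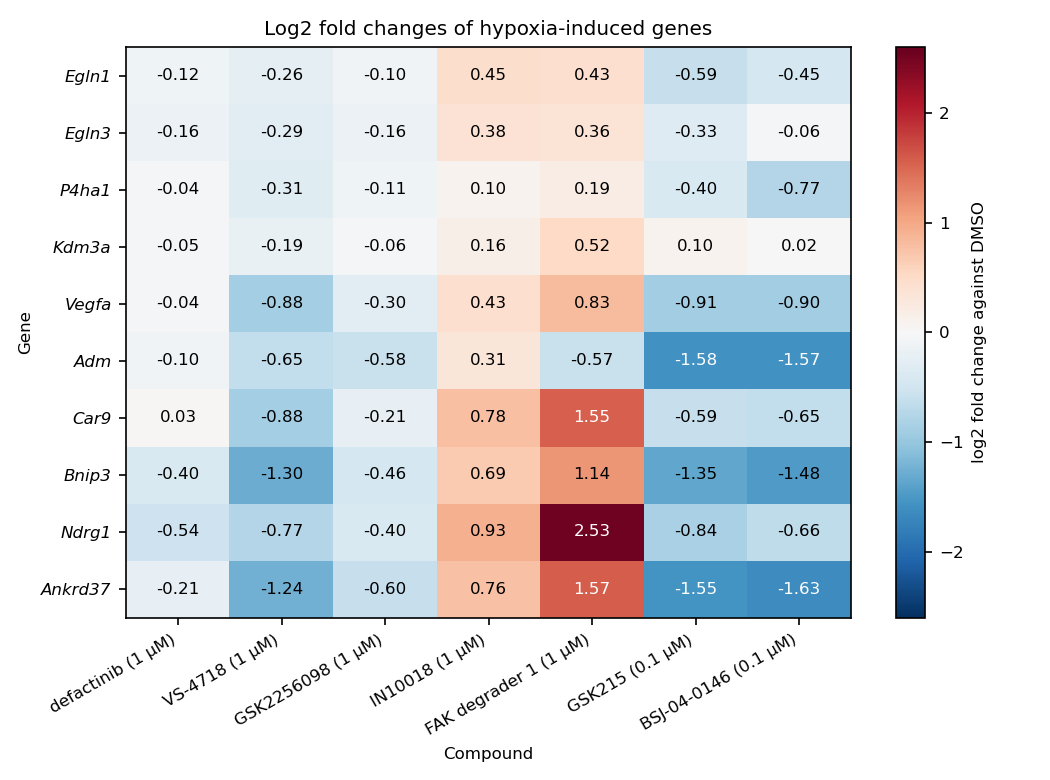
Log2 fold changes of the 10 genes (rows) against DMSO for the 7 compounds (columns), with red for higher and blue for lower. The IN10018 column is red in each row, and in the FAK degrader 1 column *Adm* is blue (-0.57) while *Ndrg1* reaches 2.53.

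The median log2 fold change of the 10 genes was 0.68 with PROTAC FAK degrader 1, 0.44 with IN10018, -0.11 with defactinib, -0.26 with GSK2256098, -0.71 with VS-4718, -0.72 with GSK215 and -0.71 with BSJ-04-0146. The median of all genes tested was between -0.004 and 0.021 in the 7 comparisons. Scaled by library totals alone, that median moved to 0.143 with GSK215 and 0.126 with BSJ-04-0146. The members' medians moved up as well, to -0.59 and -0.60, and are to be read against those all-gene medians. PROTAC FAK degrader 1 and the other PROTACs were used at different doses, so their opposite medians stand side by side and were not compared.

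Of the 10 genes, 2 departed from the rest of the group, in that their log2 fold change lay beyond 2 standard errors on the other side of 0 from the median of the other 9 genes. These were *Adm* with PROTAC FAK degrader 1 (-0.57 against 0.83) and *Kdm3a* with GSK215 (0.10 against -0.84). *Adm* kept its direction and call with this compound in each alternative tried, whereas the *Kdm3a* call did not hold as given above. As a description over the 8 group means, the Pearson correlation of a gene with the mean of the other 9 was 1.00 for *Ankrd37*, 0.99 for *Vegfa* and *Bnip3*, 0.96 for *Car9* and *Egln1*, 0.89 for *Ndrg1*, 0.88 for *Egln3*, 0.87 for *P4ha1*, 0.72 for *Kdm3a* and 0.61 for *Adm*. The 8 points are group means of log2 CPM, 1 of them DMSO, and a gene and the mean it is set against come from the same libraries and share their scaling. Without PROTAC FAK degrader 1, the value for *Adm* was 0.89 and that for *Kdm3a* was 0.38 over 7 groups. *Adm* and *Kdm3a* had a correlation of 0.03 with each other.

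**Figure D3:**
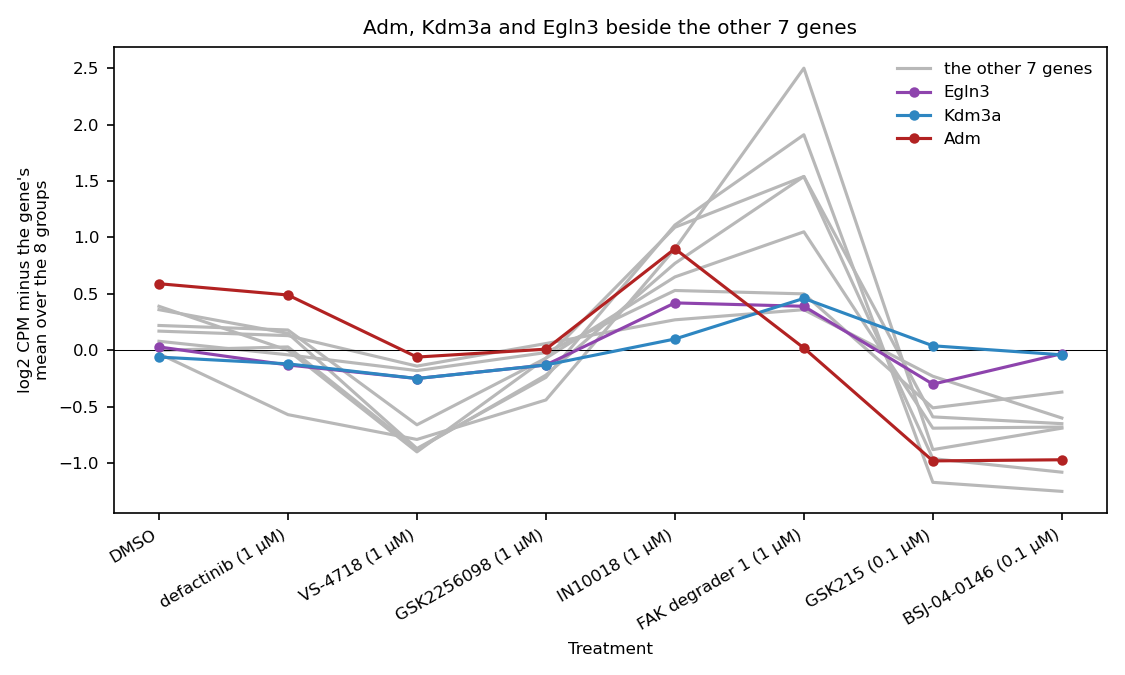
Log2 CPM of each gene minus its mean over the 8 groups, with *Adm* in red, *Kdm3a* in blue, *Egln3* in purple and the other 7 genes in grey. *Adm* follows the grey lines to IN10018 and then drops with FAK degrader 1, whereas *Kdm3a* and *Egln3* stay within a narrow band, spanning 1.64-fold and 1.65-fold.

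At matched doses, 11 pairs of compounds were set against each other, 10 at 1 μM and 1 at 0.1 μM, again as a description. PROTAC FAK degrader 1 and IN10018, the compounds with higher medians than DMSO, shared a dose. Against IN10018, 7 members were higher with PROTAC FAK degrader 1 and 1 was lower, beside 32.4% and 31.1% of all genes. Compared to IN10018, PROTAC FAK degrader 1 gave higher *Ndrg1* by 1.60 on the log2 scale (95% interval 1.53 to 1.67), *Ankrd37* by 0.81 (0.64 to 0.98) and *Car9* by 0.77 (0.67 to 0.88). *Bnip3*, *Vegfa* and *Kdm3a* were higher by 0.45, 0.40 and 0.36, and *P4ha1* by 0.09 (0.03 to 0.15). The HIF prolyl hydroxylase genes differed by -0.02 for *Egln1* (-0.09 to 0.04) and -0.02 for *Egln3* (-0.12 to 0.07), intervals that include 0. *Adm* was lower by -0.88 (-1.02 to -0.75).

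Among the kinase inhibitors at 1 μM, IN10018 gave the highest level of each of the 10 genes. All 10 were higher than with defactinib (17.9% of all genes higher), GSK2256098 (9.78%) and VS-4718 (19.6%), with median differences of 0.56, 0.81 and 1.14. The largest single difference was that of *Ankrd37* from VS-4718, at 2.00 (1.78 to 2.22). All 10 genes were lower with VS-4718 than with defactinib (16.0% of all genes lower), by a median of -0.41, with *Ankrd37* (-1.03), *Car9* (-0.92), *Bnip3* (-0.90) and *Vegfa* (-0.84) the most different. The *Egln3* difference in this pair (-0.13, -0.23 to -0.03) was the least stable, and its call was lost with DESeq2, limma, library totals alone, no filter, or only the 6 libraries of the pair (-0.13 to -0.11). GSK2256098 and defactinib differed in both directions, with 1 member higher and 4 lower (5.89% and 5.59% of all genes). *Adm* (-0.48), *Ankrd37* (-0.39), *Vegfa* (-0.26) and *Car9* (-0.25) were lower with GSK2256098, *Ndrg1* was higher (0.14), and *Egln1*, *Egln3* and *Kdm3a* lay within 0.02 of each other. The *Ndrg1* call was lost without the filter (0.14) and without several single libraries (0.11 to 0.15), and that for *Ankrd37* without defactinib replicate 2 (-0.29), among others.

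At 0.1 μM, BSJ-04-0146 and GSK215 gave nearly the same level of *Vegfa* (0.01, 95% interval -0.09 to 0.11) and of *Adm* (0.01, -0.19 to 0.21). The intervals for *Car9* (-0.22 to 0.10) and *Ankrd37* (-0.42 to 0.27) also included 0. Of all genes, 12.6% were higher and 9.88% lower with BSJ-04-0146, and of the members 3 and 1. BSJ-04-0146 was higher for *Egln3* by 0.28 (0.17 to 0.39), for *Ndrg1* by 0.19 (0.09 to 0.29) and for *Egln1* by 0.14 (0.06 to 0.22), and lower for *P4ha1* by -0.36 (-0.43 to -0.30). The *Egln1* call was lost without BSJ-04-0146 replicate 2 (0.09).

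Other genes of the response were read from a list of 26 further hypoxia-induced genes outside glycolysis, of which 24 passed the filter. This list and those that follow were chosen with earlier results of these data known, so their counts are not an independent check on the members. IN10018 gave 16 higher and 1 lower (6.44% and 6.85% of all genes), and PROTAC FAK degrader 1 gave 14 higher and 8 lower (34.1% and 32.7%). Lower calls outnumbered higher ones with VS-4718 (2 higher and 16 lower), GSK215 (2 and 16), BSJ-04-0146 (4 and 17), GSK2256098 (0 and 14) and defactinib (3 and 8). The shares of all genes lower with these 5 compounds were 18.9%, 27.2%, 26.9%, 6.09% and 11.0%, and the shares higher were 20.4%, 27.4%, 27.7%, 6.36% and 11.4%. The median log2 fold changes were 0.27 with IN10018, 0.55 with PROTAC FAK degrader 1, -0.47 with GSK215 and -0.52 with BSJ-04-0146.

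*Ddit4*, an inhibitor of mTORC1, and *Ero1a* (listed as *Ero1l*), an oxidase of the endoplasmic reticulum, followed the members. *Ddit4* was 152 ± 8.04 CPM with DMSO, 508 ± 34 CPM with PROTAC FAK degrader 1, 45.0 ± 1.13 CPM with GSK215 and 66.6 ± 2.75 CPM with BSJ-04-0146 (SD, n = 3). *Ero1a* was 323 ± 8.18, 1110 ± 34.6, 129 ± 3.48 and 123 ± 3.31 CPM in the same groups. Not all of the list behaved in this way. *Ddit4*, *Ero1a*, *Tfrc* and *Angptl4* were named for the size of their difference between PROTAC FAK degrader 1 and the PROTACs at 0.1 μM, so their values are a description without *P* values. *Tfrc*, the transferrin receptor, fell from 765 ± 2.26 to 119 ± 4.53 CPM with PROTAC FAK degrader 1 (log2 fold change -2.69), and its log2 fold change with GSK215 was -0.76. *Angptl4*, a secreted inhibitor of lipoprotein lipase, rose from 1.26 ± 0.426 to 22.4 ± 1.38 CPM with GSK215 (log2 fold change 4.13) and to 25.8 ± 1.16 CPM with BSJ-04-0146 (4.34), and fell with PROTAC FAK degrader 1 (-1.29).

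Of 22 glycolytic genes and their regulators, all of which were tested, IN10018 gave 20 higher and 0 lower, beside 6.44% and 6.85% of all genes. PROTAC FAK degrader 1 gave 13 higher and 3 lower, beside 34.1% and 32.7%. Defactinib gave 16 lower (11.0% of all genes lower), GSK2256098 16 (6.09%), VS-4718 19 (18.9%), GSK215 19 (27.2%) and BSJ-04-0146 19 (26.9%). At most 2 were higher in any of them, beside 6.36% to 27.7% of all genes higher. *Pdk1*, the kinase that turns off pyruvate dehydrogenase, was 75.9 ± 2.37 CPM with DMSO, 124 ± 3.31 CPM with IN10018, 182 ± 3.07 CPM with PROTAC FAK degrader 1 and 44.6 ± 3.07 CPM with GSK215. *Eno2*, an enolase, was 77.2 ± 0.838, 115 ± 1.11, 205 ± 4.25 and 53.6 ± 1.25 CPM in these groups. *Pfkfb4* stayed between 9.64 and 12.5 CPM in all 8 group means, and *Aldoc* was hardly expressed, at 0.66 to 1.34 CPM.

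**Figure D4:**
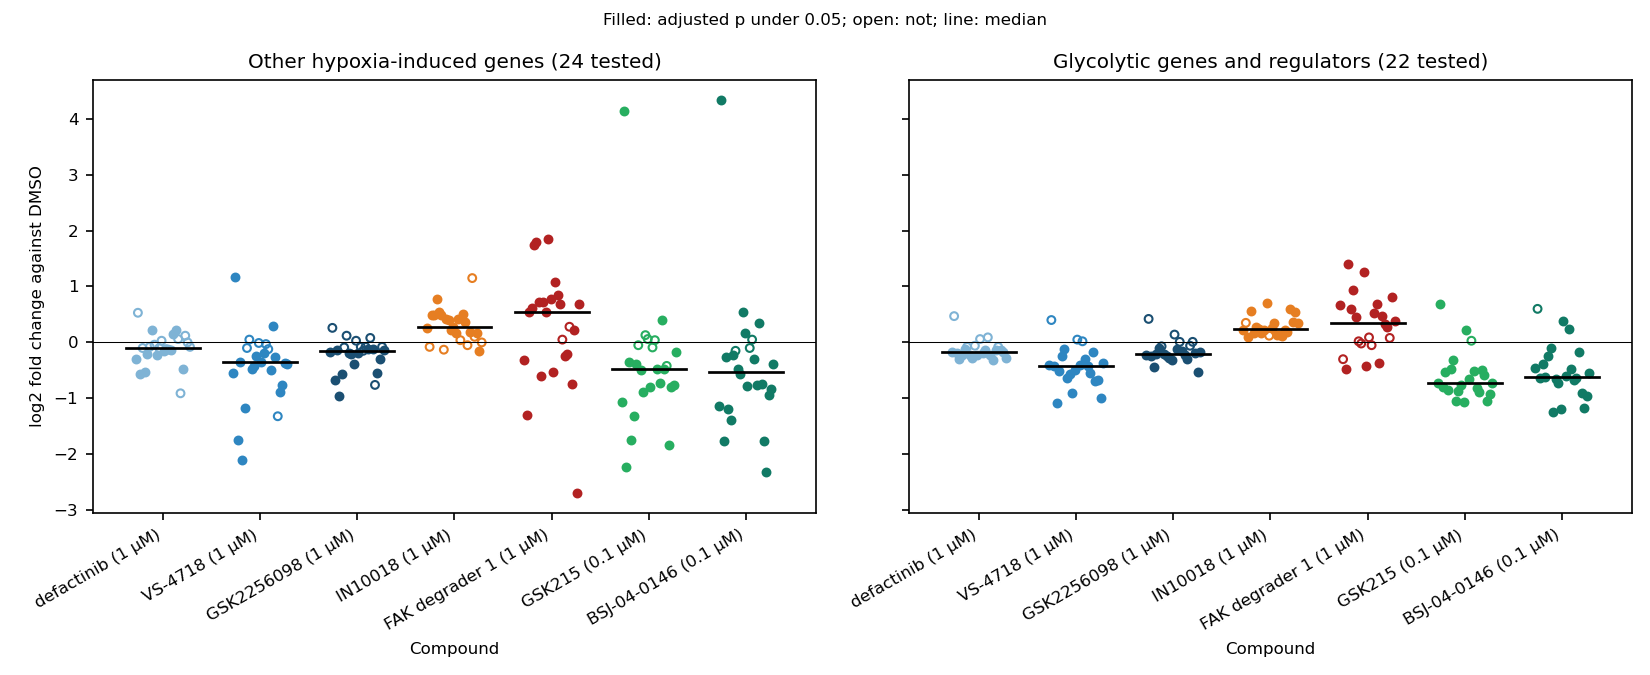
Log2 fold changes against DMSO of 24 further hypoxia-induced genes (left) and 22 glycolytic genes and regulators (right) for each compound. Filled points passed an adjusted *P* of 0.05 by edgeR, open points did not, and lines are medians. The IN10018 and FAK degrader 1 medians lie above 0 in both panels and the other 5 below 0, while *Angptl4* stands at 4.13 and 4.34 with the PROTACs at 0.1 μM.

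The genes for the HIF subunits, the VHL complex and the remaining hydroxylases had median log2 fold changes of -0.04 to 0.13 over the 7 compounds. Of 12 such genes, 11 were tested, and *Hif3a* did not pass the filter. The numbers higher and lower were 0 and 2 with defactinib, 4 and 2 with VS-4718, 1 and 1 with GSK2256098, 2 and 0 with IN10018, 3 and 1 with PROTAC FAK degrader 1, 3 and 5 with GSK215 and 5 and 3 with BSJ-04-0146. Of all genes, 11.4% were higher and 11.0% lower with defactinib, 20.4% and 18.9% with VS-4718, 6.36% and 6.09% with GSK2256098, 6.44% and 6.85% with IN10018, 34.1% and 32.7% with PROTAC FAK degrader 1, 27.4% and 27.2% with GSK215 and 27.7% and 26.9% with BSJ-04-0146, so several of these counts lie near the share over all genes. The genes that follow were named because they were called with at least 3 compounds, and their *P* values are not independent of that choice. *Hif1a*, the α subunit, was 182 ± 1.75 CPM with DMSO and was lower with GSK215 (144 ± 4.82 CPM, log2 fold change -0.33, edgeR adjusted *P* = 2.86e-10), BSJ-04-0146 (-0.27, 3.83e-08), VS-4718 (-0.22, 2.31e-06), GSK2256098 (-0.12, 2.16e-02) and defactinib (-0.10, 4.09e-02). The GSK2256098 call was lost with library totals alone and without DMSO replicate 2 or 3 or GSK2256098 replicate 3 (-0.12 to -0.10), and the defactinib call with library totals alone and without any 1 DMSO library or defactinib replicate 2 or 3 (-0.11 to -0.08). *Hif1a* was 175 ± 6.05 CPM with IN10018 and 178 ± 5.33 CPM with PROTAC FAK degrader 1, and neither passed the test (intervals -0.12 to 0.02 and -0.10 to 0.05). *Vhl*, which encodes the substrate receptor of the ligase, rose with IN10018 (36.5 ± 2.06 to 46.1 ± 1.29 CPM, edgeR adjusted *P* = 2.54e-06) and PROTAC FAK degrader 1 (47.2 ± 2.02 CPM, 6.30e-09) and fell with GSK215 (29.6 ± 0.308 CPM, 4.14e-06), BSJ-04-0146 (31.4 ± 1.7 CPM, 4.69e-04), defactinib (-0.22, 8.28e-04) and VS-4718 (-0.14, 2.06e-02). With library totals alone the *Vhl* calls with BSJ-04-0146 (-0.11) and VS-4718 were lost, the latter also without DMSO replicate 1 or VS-4718 replicate 1 (-0.13 to -0.10). *Egln2*, the hydroxylase PHD1, which was not among the members, rose with BSJ-04-0146 (45.2 ± 1.07 to 64.7 ± 4.08 CPM, edgeR adjusted *P* = 1.18e-10), GSK215 (0.27) and VS-4718 (0.27). It was also called with GSK2256098 (0.17), but not without any 1 DMSO library or GSK2256098 replicate 1 or 3 (0.12 to 0.18). Its order among the groups was therefore unlike that of *Egln1* and *Egln3*. *Eloc*, a partner of VHL, fell with PROTAC FAK degrader 1 (-0.27, 3.60e-08, edgeR) and GSK215 (-0.16, 2.42e-04) and rose with VS-4718 (0.20, 1.72e-05) and IN10018 (0.12, 2.07e-02). The *Eloc* call with IN10018 was lost with no filter and without DMSO replicate 3 or IN10018 replicate 2 or 3 (0.09 to 0.12), and that with GSK215 with library totals alone (-0.04). *Arnt2* was low, at 2.08 to 3.82 CPM, and was higher with all 3 PROTACs (0.50 to 0.62), although not with GSK215 without its replicate 1 (0.38). Chosen after their values were seen, *Arnt*, the partner of HIF-α, rose with PROTAC FAK degrader 1 from 77.5 ± 0.874 to 149 ± 1.68 CPM (0.95) and was not called with any other compound, and *Epas1*, the second α subunit, rose with GSK215 (0.85) and BSJ-04-0146 (1.49).

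Among all genes other than the members, those whose group means were most like the mean profile of the 10 members were *Gys1* (r = 0.996 over 8 groups), *Ciart* (0.994), *Ufsp2* (0.991), *Usp53* (0.990), *Slc2a3* (0.990) and *Pdk1* (0.988). *Gys1*, *Slc2a3* and *Pdk1* belong to the hypoxia and glycolysis lists above, and the others to no list. These were taken from 10273 genes with a mean of at least 5 CPM, of which 442 (4.3%) had a value over 0.9. *Gys1*, glycogen synthase, ran from 59.2 ± 4.86 CPM with GSK215 to 138 ± 6.27 CPM with PROTAC FAK degrader 1. *Ciart*, a circadian repressor, ran from 3.63 ± 0.211 CPM with BSJ-04-0146 to 23.2 ± 0.322 CPM with PROTAC FAK degrader 1. *Slc2a3*, a glucose transporter, ran from 32.1 ± 3.15 to 113 ± 2.29 CPM. *Ufsp2* is the gene that overlaps *Ankrd37*, and *Usp53* changed little, from 20.2 to 25.8 CPM.

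Genes of the integrated stress response, a program driven by ATF4, had medians of the same sign as the members with each compound. Of 11 such genes, PROTAC FAK degrader 1 gave 10 higher (median 1.60 on the log2 scale, beside 34.1% of all genes higher) and IN10018 gave 8 higher (0.27, beside 6.44%). In contrast, 11 were lower with VS-4718 (-0.78, beside 18.9% of all genes lower), GSK2256098 (-0.41, 6.09%), GSK215 (-1.12, 27.2%) and BSJ-04-0146 (-0.93, 26.9%), and defactinib gave 3 higher and 7 lower (-0.12, 11.4% and 11.0%). Chosen after their values were seen, *Atf4* had log2 fold changes of 0.88 with PROTAC FAK degrader 1 and -1.16 with GSK215, and *Ddit3* of 3.59 and -0.87. The summed level of 8 Schwann cell markers ran from 37.8 to 40.3 CPM with PROTAC FAK degrader 1 and 50.8 to 53.6 CPM with DMSO to 110 to 123 CPM with VS-4718, 207 to 226 CPM with BSJ-04-0146 and 233 to 239 CPM with GSK215. With IN10018 it was 48.9 to 53.1 CPM, overlapping DMSO, and with defactinib and GSK2256098 it was 72.1 to 77.6 CPM. With PROTAC FAK degrader 1, of the 7 markers tested 1 was higher, 2 were lower and 4 were not called (median -0.14), beside 34.1% of all genes higher and 32.7% lower. *Sox10* was lower (20.1 to 12.2 CPM), as was *Ngfr* (10.4 to 4.93 CPM), and *Erbb3* was higher (3.48 to 5.36 CPM). All 7 were higher with GSK215 (27.4% of all genes higher) and with BSJ-04-0146 (27.7%), although the *S100b* call with BSJ-04-0146 was lost without its replicate 1 (1.49). The 4 fibroblast markers summed to 395 to 414 CPM with DMSO, 291 to 297 CPM with PROTAC FAK degrader 1, 361 to 393 CPM with BSJ-04-0146, 383 to 419 CPM with IN10018 and 470 to 476 CPM with GSK215, and to 428 to 515 CPM with the other 3 compounds. The sum is almost all *Col1a1*, at 392 CPM with DMSO, 446 CPM with GSK215 and 346 CPM with BSJ-04-0146, the last a call lost with library totals alone (-0.07). *Pdgfra* was instead higher with both, from 12.4 to 26.3 and 26.0 CPM. The 4 macrophage markers summed to 3.48 to 4.00 CPM with DMSO, 3.61 to 6.02 CPM with the kinase inhibitors, 10.8 to 11.7 CPM with PROTAC FAK degrader 1, 5.93 to 7.62 CPM with GSK215 and 7.60 to 9.04 CPM with BSJ-04-0146. With PROTAC FAK degrader 1 this was *Cd68* alone (3.35 to 10.9 CPM), since *Csf1r* was at 0.444 and 0.288 CPM, not called, and *Ptprc* and *Adgre1* were at or near 0. The 3 endothelial markers summed to at most 0.57 CPM in any library. The part of the stress response, of these markers and of the lower depth of the PROTAC libraries in the levels of the 10 genes was not tested.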

How the data were processed

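Poly(A)-selected RNA from 24 libraries was sequenced by a commercial service. Per the labels' processing notes, the submitters used Trimmomatic 0.36, STAR 2.5.2b and featureCounts of Subread 1.5.2 with GRCm38. The strand setting and annotation release are not given in the sources used here. The authors deposited raw counts of reads per Ensembl gene, not normalized, for 49315 genes. Gene coordinates, given with GRCm38, and exon lengths are from GENCODE M21, which held 48970 of the identifiers.

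All 24 libraries entered 1 quasi-likelihood fit in edgeR 4.0.16 under R 4.3.3, with TMM scaling, the filterByExpr filter and 16 residual degrees of freedom. Two-sided tests were Benjamini-Hochberg adjusted across 16070 genes, at a threshold of 0.05. Intervals are 95%. The script was tested on simulated data. Alternatives were DESeq2 1.42.0, limma 3.58.1 on log2(CPM + 4), the scale the study names, library totals alone, no filter, a replicate block, only the libraries compared and leaving out each library.

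Members and gene lists were chosen with earlier results of these data known. A Schwann cell marker of the initial list is not reported here and was left out of the summed level. Besides the members and *Ptk2*, named genes were the 2 largest and 2 smallest differences between PROTAC FAK degrader 1 and the mean of GSK215 and BSJ-04-0146 in each of the hypoxia and glycolysis lists, HIF pathway genes called with at least 3 compounds, and the 6 genes most like the members' profile.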

Additional observations from a re-analysis of the deposited data

How the results depend on the processing

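Of 70 member differences from DMSO, each refitted under 12 alternatives, 60 kept their call status throughout and 10 gained or lost a call. Between compounds, 8 of 110 gained or lost a call. Among these 840 and 1320 values, no difference called in either fit changed direction. Differences called in neither fit were not checked for direction. With library totals alone, the members' median was -0.60 with BSJ-04-0146, -0.59 with GSK215 and 0.76 with PROTAC FAK degrader 1. That last compound lay 0.78 above defactinib, 0.93 above GSK2256098 and 0.45 above IN10018, against 0.72, 0.86 and 0.38 with TMM scaling. With limma on log2(CPM + 4), which shrinks low genes, the medians were -0.68 with BSJ-04-0146, -0.67 with GSK215 and -0.62 with VS-4718, and IN10018 lay 0.52, 0.73 and 1.03 above defactinib, GSK2256098 and VS-4718. Without the filter the BSJ-04-0146 median was -0.74. Small counts moved most. With library totals alone, the further hypoxia-induced genes higher were 5 with defactinib, 5 with GSK215 and 1 with GSK2256098 (also 1 with only the libraries compared), and 1 glycolytic gene was higher with defactinib. The HIF pathway genes higher were then 6 with GSK215 and 5 with PROTAC FAK degrader 1, and those lower 1 with defactinib, 3 with GSK215, 0 with GSK2256098 and 1 with VS-4718. With only the libraries compared, 2 HIF pathway genes were lower with PROTAC FAK degrader 1. The 2 glycolytic genes higher with GSK215 were 0 without the filter or by DESeq2. The cause of these shifts was not tested.

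Leaving out each library in turn, genes called numbered 1298 to 1622 with GSK2256098, where leaving out its replicate 3 took the count more than 1.5 times below the 2001 of all libraries, and 1380 to 1824 with IN10018 against 2136, where leaving out DMSO replicate 2 or IN10018 replicate 3 did so. Fewer libraries were fitted there. Glycolytic genes higher were 0 to 1 with defactinib and 0 to 2 with GSK215. HIF pathway genes higher were 0 to 1 with GSK2256098 and 1 to 2 with IN10018, and those lower 1 to 2 with defactinib and VS-4718 and 0 to 1 with GSK2256098. The members' median difference was -0.05 to 0.00 for BSJ-04-0146 against GSK215, where its sign was lost without GSK215 replicate 1, and -0.08 to -0.06 for GSK2256098 against defactinib.

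Spearman's rho in place of Pearson's r gave 0.83 for *Adm*, 0.43 for *Kdm3a*, 0.74 for *Egln3* and 0.98 for *P4ha1*. Same-numbered replicates did not deviate together (84 pairs, median correlation -0.0127, 9 over 0.1), and 4 of 24 libraries correlated best with their own number. No pairing by number was thus seen, but the labels do not say whether same-numbered replicates were handled together. With the replicate block, genes called moved from 10741 to 10700 with PROTAC FAK degrader 1, members called were as many as without it, and 1 glycolytic gene in place of 2 was higher with GSK215.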
